A study of Caenorhabditis elegans with 2 samples.

Results

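The cytosolic ribosomal protein genes encode the proteins of the large subunit (rpl genes), the small subunit (rps genes) and the acidic stalk (rla genes) of the ribosome that translates nuclear messages. They were taken as the protein-coding genes whose symbol begins with rpl-, rps- or rla- and a digit in the Ensembl or the RefSeq annotation of the C. elegans genome (assembly WBcel235, the assembly that ce11 names). There were 84 such genes among 19973 nuclear protein-coding genes: 49 of the large subunit, 32 of the small subunit and 3 of the stalk. Ensembl symbols gave 81 of them and RefSeq symbols 78, and rpl-37.1, rpl-27A and rps-27A (ubl-1) were found by RefSeq symbol only.

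The study mapped LIN-26, a zinc-finger protein, by chromatin immunoprecipitation and sequencing (ChIP-seq) in 2 biological replicates of 1 group. The worms were of strain RW12178, in which CRISPR placed GFP with an unc-119(+) rescue marker at the lin-26 locus, in an unc-119(tm4063) III background. Whole young adults of 64 hours were used, synchronised as starved L1 larvae after bleaching, and the description says that the fusion was precipitated through GFP, whereas the antibody field reads lin-26. No untagged strain or other genotype is among the samples, so the comparisons below are between genes, not between conditions. A peak from whole animals does not tell in which cells it arose.

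The ribosome joins amino acids into protein, and the genes for its proteins are among the most strongly transcribed in growing animals. They are known to be regulated together, since the ribosome needs its proteins in equal amounts. LIN-26 is known in C. elegans for specifying and maintaining epidermal cells and other epithelial and support cells. Many C. elegans messages, those of ribosomal proteins among them, receive a spliced leader in place of their original start, so the annotated 5' end of such a gene can be the trans-splice site rather than the start of transcription. Distances below are therefore from annotated 5' ends.

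A gene is called bound here when the summit of a peak in the deposited list built from both replicates lay between 1000 bp upstream and 200 bp downstream of any of its annotated 5' ends. By this rule 28 of the 84 ribosomal protein genes (33.3%) were bound, beside 6.65% of all protein-coding genes. The strongest sites were intergenic peaks with summits 279 to 420 bp upstream of rpl-3, rpl-35, rpl-15 and rps-24. Weaker summits lay inside the genes, 70.7% of them in coding sequence, beside 31.7% of the summits inside all genes. At least 1 summit lay inside 33 of the 84 genes (39.3%), beside 6.93% of all genes.

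The sequences at the strongest upstream summits are shown because they carry letters in common. They are the 6 summits of highest signal among the bound ribosomal protein genes of chromosomes III, IV and V whose windows hold no annotated UTR. Each runs 50 bases to either side of the summit, on the strand of the gene, from the RefSeq sequence of WBcel235. Capitals mark TACGGT and AGTGTA on either strand (read as ACCGTA and TACACT on the other), which were picked by eye from such windows.
rpl-3 (chrIII:3867525-3867625, + strand): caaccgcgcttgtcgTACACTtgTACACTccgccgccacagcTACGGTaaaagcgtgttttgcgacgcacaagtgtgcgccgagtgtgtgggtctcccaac
rpl-35 (chrIII:7854664-7854764, + strand): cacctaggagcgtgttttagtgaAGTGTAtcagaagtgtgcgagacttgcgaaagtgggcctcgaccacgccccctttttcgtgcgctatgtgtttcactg
rpl-15 (chrIV:654874-654974, − strand): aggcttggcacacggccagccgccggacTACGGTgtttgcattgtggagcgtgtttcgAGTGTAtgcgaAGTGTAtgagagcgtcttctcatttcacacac
rps-24 (chrIV:385503-385603, + strand): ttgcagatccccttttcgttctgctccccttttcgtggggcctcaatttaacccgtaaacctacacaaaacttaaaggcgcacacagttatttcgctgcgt
rpl-20 (chrIV:4750024-4750124, − strand): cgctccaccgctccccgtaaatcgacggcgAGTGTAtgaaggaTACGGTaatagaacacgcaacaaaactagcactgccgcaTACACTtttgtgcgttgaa
rps-1 (chrIII:4475613-4475713, + strand): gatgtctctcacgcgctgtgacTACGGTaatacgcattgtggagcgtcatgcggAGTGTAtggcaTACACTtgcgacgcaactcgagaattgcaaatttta

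The windows of rpl-3, rpl-15, rpl-20 and rps-1 each held 1 TACGGT and 2 copies of AGTGTA. That of rpl-35 held 1 AGTGTA and no TACGGT, and that of rps-24 held neither. The windows of rpl-15 and rps-1, genes on different chromosomes, shared an unbroken run of 14 bases from gcattg to gagcgt in the same orientation. It was the longest run shared by any 2 of the printed windows. Its 2 matches in the nuclear genome are those 2 windows, so their place inside peaks was set by the choice of windows. Within 50 bases of the strongest summit, TACGGT stood in 8 of the 28 bound ribosomal protein genes (28.6%) and in 5.30% of the 1301 other bound genes, and AGTGTA stood in 5 of the 28 (17.9%) and in 4.15% of the others. These words were picked from windows of the bound genes outside chromosome I, so the shares only describe them. Among the bound genes of chromosome I, TACGGT stood in 3 of 14 windows and AGTGTA in 0 of 14.

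TACGGT was present in similar shares of bound and unbound ribosomal protein genes. In the 500 bases before the outermost 5' end, it was present in 12 of the 28 bound genes (42.9%) and 26 of the 56 others (46.4%), beside 13.9% of all genes. AGTGTA in the same stretch was present in 6 of the 28 bound genes (21.4%) and 3 of the 56 others (5.36%), beside 17.7% of all genes. A further word seen in these windows, AGCGTG, was present in 14.3% of the bound and 12.5% of the unbound ribosomal protein genes and 7.99% of all genes. The fourth, CTCCGC, was present in 10.7%, 12.5% and 12.5%.

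Named motifs were looked for from 250 bases before to 50 after the outermost 5' end, on both strands. CACGTG, the E-box, was present in 1 of the 84 promoters (1.19%) and in 5.83% of all promoters. GAGAGA was present in 21.4% and 21.8%, and the GATA-like word AGATAA in 20.2% and 21.2%. TATAAA was present in 26.2% and 38.0%, a run of 8 T in 17.9% and 32.5%, the GC-rich word CCGCCC in 3.57% and 7.81%, and the tRNA B box in 0 of 84 and 0.165%. For GAGAGA the share was the same in bound and unbound ribosomal protein genes, 21.4% each.

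A trans-splice acceptor was looked for at the 5' ends. The splice acceptor TTTCAG stood directly before an annotated 5' end in 45 of the 84 genes (53.6%), beside 16.7% of all genes. It did so in 19 of the 28 bound (67.9%) and 26 of the 56 unbound members (46.4%), and in 28.8% of the other bound genes. The shorter ending CAG gave no such gap: it stood there in 24 of the 28 bound (85.7%) and 49 of the 56 unbound members (87.5%), beside 29.5% of all genes. Examples are shown with the acceptor in capitals, 24 bases before and 6 after the outermost 5' end.
rpl-3 (chrIII:3867830-3867859, + strand): tttcgtaaaattaatattTTTCAGggtaca
rpl-15 (chrIV:654571-654600, − strand): ttattctaaccttttttcTTTCAGaaaaca
rpl-20 (chrIV:4749773-4749802, − strand): ttgcatcatatttttgttTTTCAGggttaa

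The share of bound ribosomal protein genes stood above the share of all genes in each of the 4 thresholded lists. In the list of replicate 1 alone, 16 of the 84 genes (19.0%) had a summit in the window, beside 2.47% of all genes. In the list of replicate 2 alone, 23 genes (27.4%) had one, beside 4.51%. The conservative list of both replicates gave 23 genes (27.4%), beside 5.63%. Each thresholded list reaches a global irreproducible discovery rate (IDR) of 0.01. The IDR given for a peak is the estimated share, among peaks ranked as high or higher, that do not recur between replicates or pseudoreplicates. In the ranked list behind the list of both replicates, a limit of 0.05 gave 37 genes (44.0%) beside 11.6%, and a limit of 0.001 gave 15 (17.9%) beside 2.81%. With no limit, 78 genes (92.9%) had a ranked peak in the window, beside 61.6%. These are counts over genes of 1 set of worms, given without a test.

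**Figure D1:**
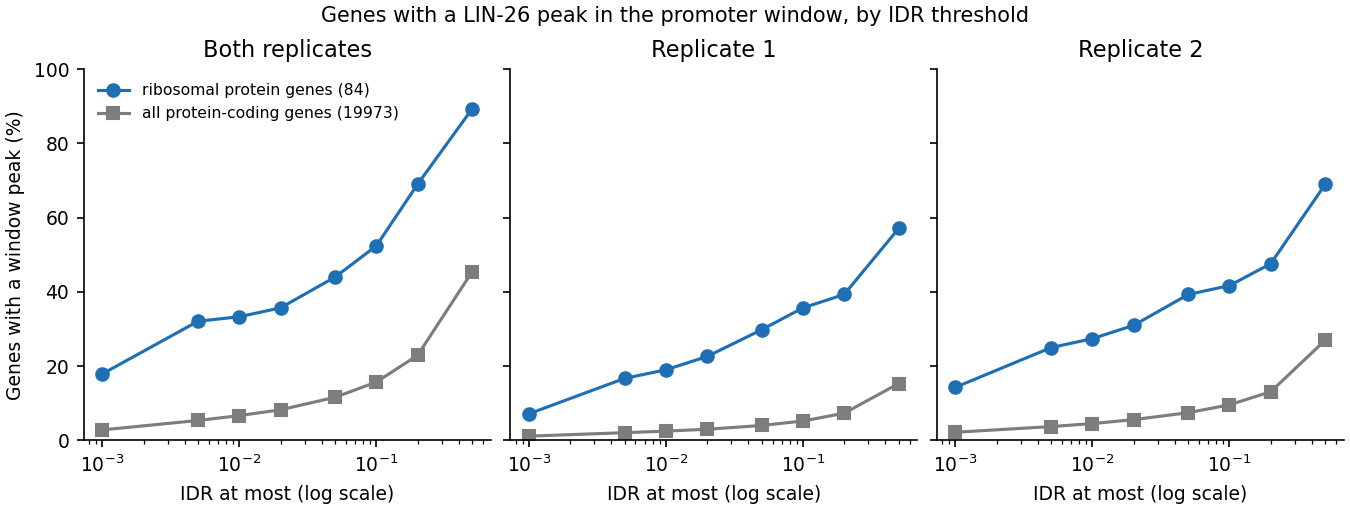
Share of genes (%) with a peak summit in the promoter window against the IDR limit (log scale), in the ranked lists of both replicates, replicate 1 and replicate 2, for the 84 ribosomal protein genes and all 19973 protein-coding genes. In each of the 3 lists the points of the ribosomal protein genes lie above those of all genes at each limit drawn; at 0.01 they read 33.3% and 6.66% for both replicates.

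The peak upstream of rpl-3, whose protein lies beside the catalytic centre of the large subunit, was the strongest of the set. Its signal, the peak caller's value relative to the control, was 729 in the list of both replicates, 279 in that of replicate 1 and 464 in that of replicate 2. Signal is not scaled between lists, and the ranks were 14 of 3187, 22 and 13. The peak spanned chrIII:3867448-3867699, its summit lay 279 bp upstream of rpl-3, and the nearest 5' end of another gene, acs-19, was 3086 bp away. The peak was near the top of the list in both replicates.

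The next 3 genes also had intergenic upstream summits that passed in both replicates. The peak of rpl-35, a protein at the exit tunnel of the large subunit, had signals of 381 with both replicates, 140 in replicate 1 and 236 in replicate 2, ranks 94, 135 and 98, and a summit 420 bp upstream. That of rpl-15, a large-subunit protein bound to ribosomal RNA, had signals of 362, 118 and 253, ranks 112, 250 and 76, and a summit 348 bp upstream of rpl-15 and 466 bp from the 5' end of K11H12.8. That of rps-24, a small-subunit protein, had signals of 355, 126 and 224, ranks 115, 204 and 113, and a summit 334 bp upstream. For rpl-35 and rps-24 the next gene's 5' end was over 1000 bp away, at 2528 bp (tag-307) and 1146 bp (T07A9.14).

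The next intergenic peaks passed in fewer lists or lay nearer to another gene. The peak at rpl-20 (rpl-18A in RefSeq) had signals of 262, 100.4 and 179.5 in the lists of both replicates, replicate 1 and replicate 2, and passed in both replicates. Its summit lay 296 bp upstream of rpl-20 but 166 bp from the 5' end of Y17G9B.5, which was nearer. The peak at rps-1 (rps-3A in RefSeq), 255 bp upstream and 513 bp from ifet-1, had signals of 227, 75.3 and 154 and passed in replicate 2 only. The peak at rps-28, 443 bp upstream and 862 bp from Y41D4B.4, had signals of 196, 68.7 and 119 and passed in replicate 2 only. The IDR of the matching peak in replicate 1 was 0.552 for rps-1 and 0.0305 for rps-28.

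The strongest summits inside a gene were those of rla-1 and rpl-12, proteins of the stalk and of its base, where translation factors dock. The summit of rla-1 (rplp-1 in RefSeq) lay in its coding sequence, 82 bp downstream of the 5' end, with signals of 261 with both replicates, 111 in replicate 1 and 133 in replicate 2, and 391 bp from the snoRNA gene Y37E3.22. The summit of rpl-12 lay in coding sequence 930 bp from its outermost 5' end and 134 bp from its 3' end, and entered the window through an internal 5' end 159 bp away. It lay 307 bp from the 5' end of tag-115, with signals of 227, 87.7 and 138. Both passed in replicate 1 and not in replicate 2, where their IDR was 0.0124 and 0.700. A second, intergenic summit of rpl-12, 41 bp upstream and 352 bp from lin-54, had a signal of 115 and passed in replicate 2 only.

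The last 3 of the 12 strongest passed in both replicates. The summit of rps-26, a small-subunit protein near the exit of the message, lay 403 bp upstream with a signal of 160 in the list of both replicates, 59.8 in replicate 1 and 95.2 in replicate 2. It lay 54 bp from the 5' end of tmem-107 and 115 bp from the snoRNA gene F39B2.14. That of rps-19 lay 262 bp upstream and 183 bp from hsr-9, with signals of 149, 64.2 and 96.9. That of rpl-39, an exit-tunnel protein, lay 725 bp upstream inside the coding sequence of its neighbour rps-30, with signals of 149, 70.5 and 84.1, so it cannot be given to rpl-39 by position.

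**Figure D2:**
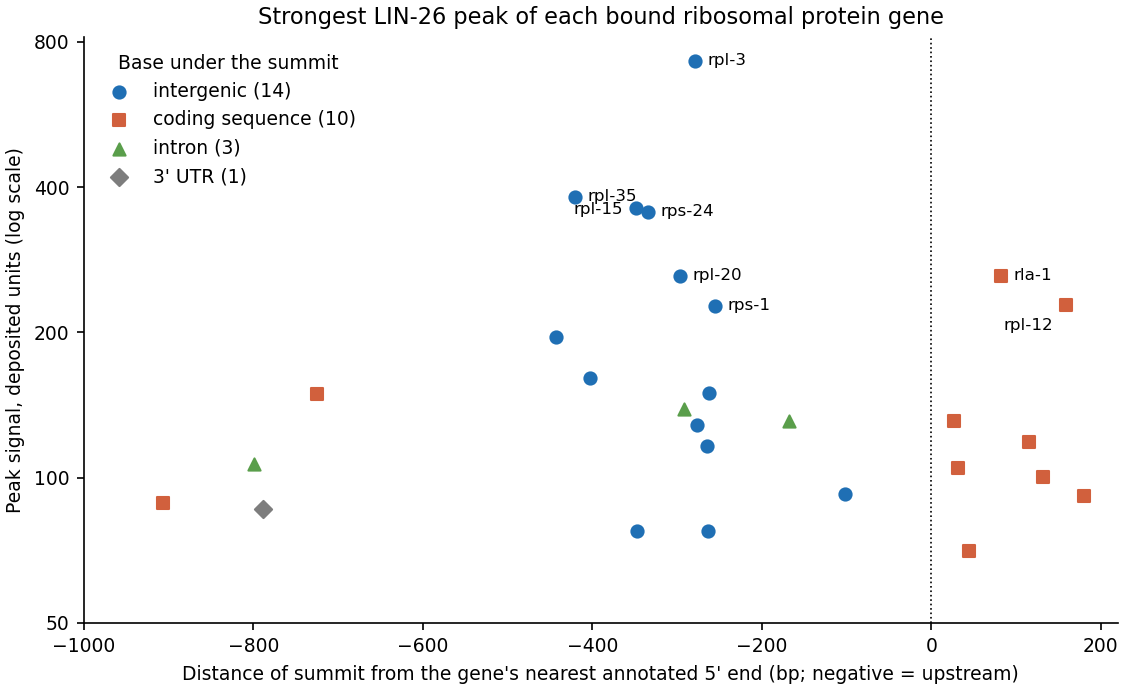
Signal of the strongest peak (log scale, deposited units, list of both replicates) against the distance of its summit from the nearest annotated 5' end of the gene (bp, negative upstream) for the 28 bound ribosomal protein genes, by the kind of base under the summit. The 5 highest signals, from 262 to 729, are all intergenic and lie 279 to 420 bp upstream, while 8 summits lie downstream of the 5' end in coding sequence.

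The other 16 bound genes had weaker peaks, with signals from 70.5 to 139. Those with an upstream intergenic summit were rps-23, rps-20, rpl-7A, rpl-24.1 and rps-10. The last 2 are divergent neighbours that share 1 summit, 263 and 347 bp from their 5' ends. Those with a summit in their own coding sequence were rps-6, a target of S6 kinase in mammals, rpl-13, rps-8, rpl-27, rpl-17 and rpl-1. The summits of rpl-31 and rpl-24.2 (rsl-24D1 in RefSeq, a name outside the symbol rule) lay in introns, that of rpl-24.2 in an intron of C03D6.1. The summits of rpl-30, rpl-36 and rps-30 lay in neighbours: in an intron of pab-1, in the coding sequence of rps-14 and in the 3' UTR of rpl-39.

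Intergenic summits had the highest median signal. Of the 28 strongest summits, 14 lay over intergenic bases (median signal 178, range 77.4 to 729), 10 in coding sequence (median 112, range 70.5 to 261), 3 in introns and 1 in a 3' UTR. By distance, 14 of the 28 genes lay between 200 and 500 bp upstream, beside 30.7% of the other bound genes. Among these 14, the summit of rpl-31 lay in its own intron, 208 bp past the outermost 5' end and upstream of an internal one only. Up to 200 bp downstream lay 8 genes (28.6%), beside 12.8%. Of these 8, 4 (rpl-12, rps-6, rps-8 and rpl-1) rested on an internal alternative 5' end and lay more than 200 bp past the outermost one, 930, 402, 419 and 406 bp from it. The other 4 lay within 200 bp of the outermost end (14.3%, beside 9.15% of the other bound genes). Over 500 bp upstream there were 4 genes (14.3%), beside 35.6% of the others, and 2 genes lay within 200 bp upstream. The median distance was 270.5 bp upstream, beside 338 bp for the other bound genes. The median signal was 131, beside 118 for the other bound genes and 112 for all nuclear peaks. That median stood at percentile 60.2 of the bound genes in the list of both replicates, but at 44.0 and 47.2 in the lists of replicates 1 and 2, below the middle.

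Agreement between the replicates was partial. Of the 28 bound genes, 9 had a window summit in both replicate lists (8 of them the same peak, and rpl-12 a different peak in each), 5 in that of replicate 1 only, 11 in that of replicate 2 only and 3 (rpl-1, rpl-30 and rpl-36) in neither. Replicate 2 had the longer list, with 2083 nuclear peaks against 1191. The conservative list held 22 of the 28. In the ranked lists, the median signal of the best window peak (that with the lowest IDR) was 53.6 for bound and 25.8 for unbound members in replicate 1, and 81.3 and 34.1 in replicate 2. Bound genes were called from the list made of these same replicates, so the rule itself sets them apart and nothing is read from that gap. Across the 75 members with a ranked peak in both replicates, Spearman's rho between the signals was 0.520. These points share the local chromatin and may share a control, and the value is a description.

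**Figure D3:**
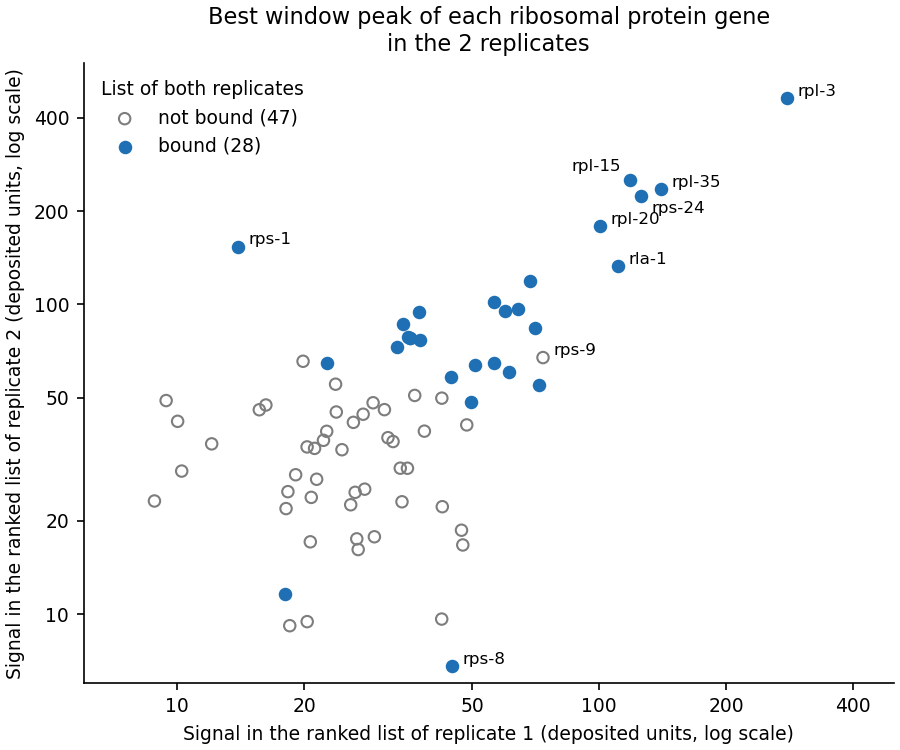
Signal of the best window peak (lowest IDR) of each ribosomal protein gene in the ranked list of replicate 2 against that of replicate 1 (deposited units, both axes log), for the 75 genes with a peak in both; filled points are bound in the list of both replicates. The highest filled points, led by rpl-3 at 279 and 464, are high in both replicates, and rps-9 is the open point at 73.6 and 67.3. For some bound genes the peak of lowest IDR is weaker than the one that matches their strongest peak. Among them are rps-1 in replicate 1, whose matching peak is given above, and rps-8 in replicate 2, drawn at 6.80 where the matching peak has 85.5.

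Some genes lay near the IDR limit. The bound gene with the highest IDR was rpl-36, at 0.00531. The 6 unbound genes with the lowest IDR were rps-3 (0.0139), rpl-22 (0.0185), rpl-5 (0.0218), rps-15 (0.0285), rpl-23 (0.0336) and rpl-28 (0.0449). Of these, rpl-22 passed in replicate 2 alone and rpl-5 in the conservative list alone. Outside the bound set, rps-12 also passed in replicate 2 alone and rpl-19 in replicate 1 alone.

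The gene rps-9, whose homologue in yeast affects the accuracy of decoding, passed in both replicates but not in the list of both. Its window summits lay 195 and 196 bp downstream of the 5' end in replicates 1 and 2, with IDR of 0.00284 and 0.00591. The summit in the list of both replicates lay 203 bp downstream, just past the edge of the window, with a signal of 135. The missing call therefore turns on 3 bp of the window. Ranked lists held no window peak for rpl-18 and rps-2 in any of the 3 lists, and for rpl-11.2, rpl-19, rpl-29 and rpl-37 in that of both replicates. In replicate 1 alone, rpl-10, rps-4 and rps-5 also had none, and in replicate 2 alone, rpl-11.2, rpl-19, rpl-34 and rpl-37 had none.

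Counting summits inside the genes showed more of the set than the promoter window did. In the list of both replicates, 33 of the 84 genes (39.3%) held a summit between their annotated start and end, beside 6.93% of all protein-coding genes. In the conservative list 32 did (38.1%), beside 5.87%, in replicate 1 alone 24 did (28.6%), beside 2.57%, and in replicate 2 alone 26 did (31.0%), beside 4.23%. Ribosomal protein genes are short, with a median length of 755 bp against 2027 bp for all genes, and the counts per length were set beside each other. Per kb of gene, they held 0.613 summits, 41 in 66.9 kb, beside 0.0281 over all genes.

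Most of the summits inside ribosomal protein genes lay in coding sequence: 29 of the 41 (70.7%), with 6 in introns and 6 in 3' UTRs. Over all genes, 31.7% of the 1809 summits inside genes lay in coding sequence. Per kb of coding sequence, ribosomal protein genes held 0.712 coding summits and all genes 0.0232. These summits were of middling strength, with a median signal of 113, and the strongest, that of rla-1, ranked 316. Their median distance was 381 bp from the 5' end and 423 bp from the 3' end. Of the 41, 9 lay within 500 bp of a tRNA, snoRNA or snRNA gene, and 26 of the 33 genes had a summit that did not. Transcript levels were not measured in these samples, so whether the summits inside the genes go with transcription was not tested.

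Examples run along the whole gene. In rps-13, a summit with a signal of 191 lay in coding sequence 653 bp from the 5' end and 71 bp from the snoRNA gene C16A3.11, which lies within rps-13. In rpl-19, a summit with a signal of 173 lay in coding sequence 860 bp from the outermost 5' end, with no short RNA gene within 500 bp. The genes rpl-3 and rpl-35 each held a further summit in the 3' UTR, 91 and 54 bp from the 3' end, with signals of 185 and 177, and rps-9 held one 23 bp from its 3' end with a signal of 157. There were 16 genes with a summit inside and none in the window, and 44 of the 84 had a summit in one place or the other.

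**Figure D4:**
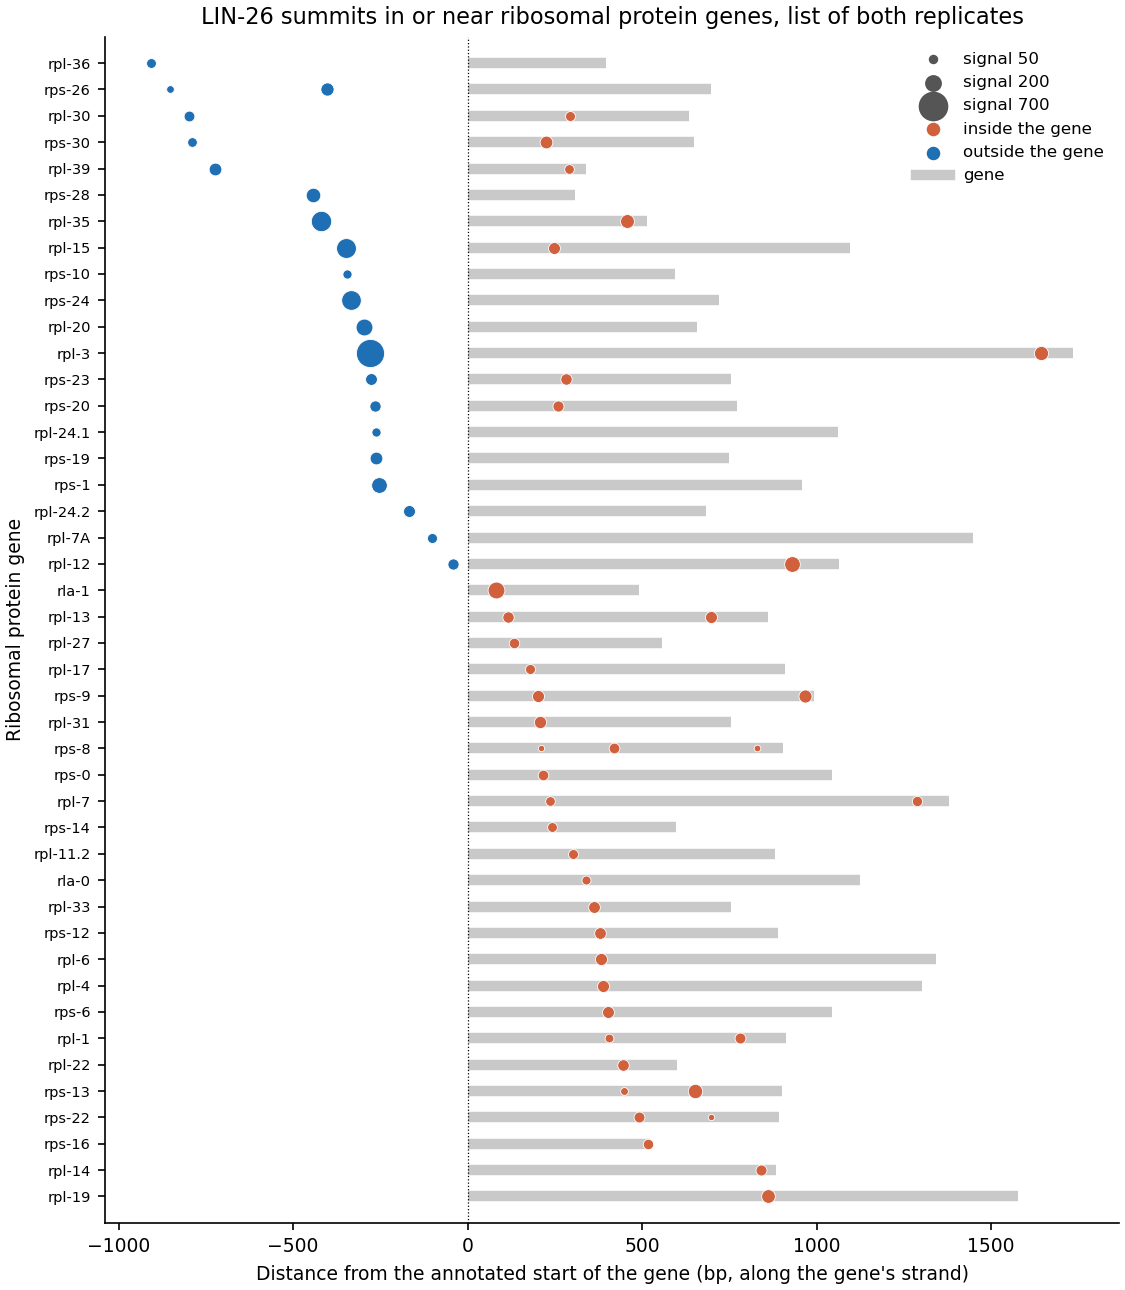
Summits of the list of both replicates in the promoter window or inside the 44 ribosomal protein genes that had any, as distance in bp from the annotated start of each gene along its strand; grey bars are the genes, point area is the signal, orange points lie inside the gene and blue points outside. The 5 points of highest signal lie 279 to 420 bp upstream, and the points inside the genes are spread from start to end.

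The bound genes came from each subunit: 16 of 49 large-subunit genes (32.7%), 11 of 32 small-subunit genes (34.4%) and 1 of 3 stalk genes. Genes with a divergent 5' end within 1000 bp were bound in 19 of 49 cases (38.8%) and the others in 9 of 35 (25.7%). Over all genes the same classes were bound in 10.9% and 5.71% of cases. Genes with an annotated snoRNA gene inside them, which ribosomal protein introns often carry, were bound in 4 of 15 cases (26.7%) and the others in 24 of 69 (34.8%). Over all genes, 48 of the 192 with a snoRNA gene inside were bound, a share close to that of these 15, and 6.48% of those without. Near a short RNA gene, within 500 bp, lay the strongest summits of 5 of the 28: rla-1, rps-26, rpl-7A (384 bp from Y24D9A.9), and rpl-24.1 and rps-10, whose shared summit was 397 bp from D1007.20. Leaving out all summits within 500 bp of such genes took the bound share of ribosomal protein genes from 33.3% to 27.4%. Over all genes it went from 6.65% to 5.73%. Of the 28 strongest summits, 19 also lay in the window of another gene. The ribosomal protein gene had the nearest 5' end in 18 of the 28. Nearness to short RNA genes, shared windows and nearest ends were not counted for the other bound genes. Whether these features set ribosomal protein genes apart was therefore not tested.

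By chromosome the bound genes were unevenly spread. Chromosome I held 14 bound of 26 (53.8%, beside 9.31% of all its genes) and chromosome IV 8 of 18 (44.4%, beside 6.89%). Chromosome III held 4 of 19 (21.1%, beside 8.86%), though its 4 include rpl-3 and rpl-35, and chromosome V 2 of 8 (beside 4.57%). Chromosome II held 0 of 11 and chromosome X 0 of 2, beside 6.18% and 5.86%. The empty count of chromosome II holds for the list of both replicates only. Of its genes, rps-9 had a window summit in each replicate list, rpl-22 in that of replicate 2 and rpl-5 in the conservative list. Inside the genes, chromosome II held 3 of its 11 with a summit (rps-9, rpl-33 and rpl-22) and chromosome X 1 of 2 (rpl-11.2).

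**Figure D5:**
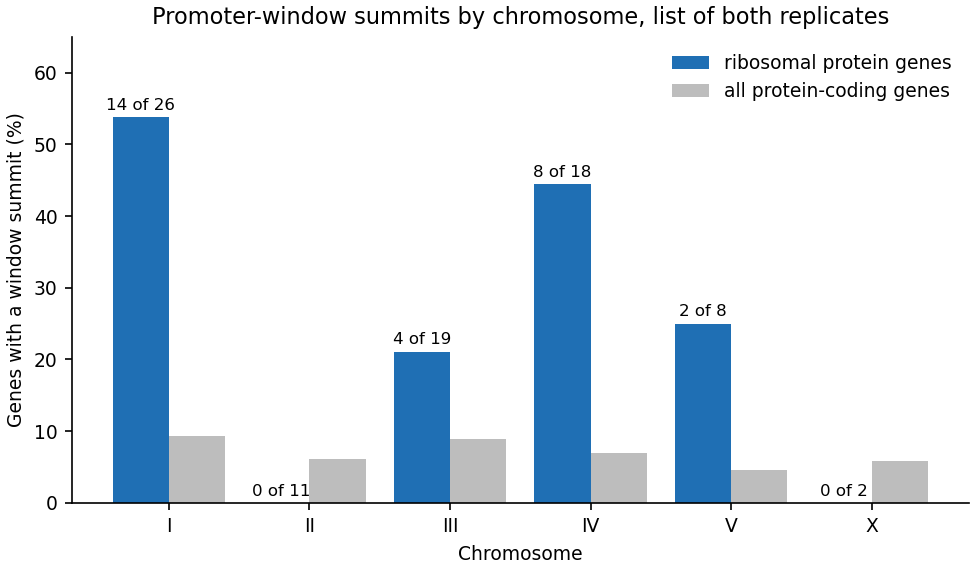
Share of genes (%) with a summit in the promoter window on each chromosome, list of both replicates, for ribosomal protein genes (blue, with bound and total number) and all protein-coding genes (grey). Chromosome I stands at 14 of 26 and chromosome II at 0 of 11, while the grey bars lie between 4.57% and 9.31%.

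Other genes of the translation machinery were counted by the same window rule, under which 6.65% of all genes were bound. Of 71 mitochondrial ribosomal protein genes, whose products serve the separate ribosome of mitochondria, 6 were bound (8.45%), near that share, led by mrpl-23 with a signal of 376, a summit 46 bp from a short RNA gene, and mrpl-17 with 154. Of 42 genes taken as translation factors by symbol alone, 9 were bound (21.4%). They were led by eef-1A.2, an elongation factor, with a signal of 265, and eif-2Bgamma with 161, a summit 38 bp from a short RNA gene. The gene eif-6 is counted both in this list and in the next. Of the 34 annotated genes for ribosome assembly and ribosomal RNA synthesis (37 were named) 5 were bound (14.7%), none with a signal above 109 (rbd-1). Fewer passed in the list of 1 replicate. Replicate 1 gave 2 mitochondrial, 2 translation factor and 1 assembly gene, beside 2.47% of all genes. Replicate 2 gave 3, 7 and 3, beside 4.51%. The nascent chain factor icd-1 was bound with a signal of 108, and icd-2 was not. Of the ribosome proteins outside the name rule, neither ubq-2, a ubiquitin fusion, nor rack-1 had a summit in the window, and both had one inside the gene.

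Summits inside genes occurred in 2 of 71 mitochondrial ribosomal protein genes (2.82%), 8 of 42 translation factor genes (19.0%), 7 of 34 assembly genes (20.6%) and both nascent chain factor genes, beside 39.3% for the cytosolic ribosomal protein genes and 6.93% for all genes. No test of these differences was run. The number of reads behind a peak is unknown from the lists, so no interval is given for any signal.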

How the data were processed

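LIN-26 ChIP-seq peaks of 2 replicates came as 8 deposited lists on ce11, per the labels: a ranked and a thresholded list for each replicate, and 2 of each from both replicates. The deposited signal is the authors' value of each peak relative to a control and carries no scaling from list to list. The score the authors deposited encodes the IDR in whole numbers, with 830 or more (an IDR of 0.01) in the thresholded lists, and the deposited −log10 of the global IDR gave other limits. The caller, the aligner and the authors' own IDR limit were not given in the sources used here. Chromatin was sonicated to 200 to 800 bp, per the labels. Depth is unknown.

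Summits were set against 29314 annotated 5' ends of protein-coding transcripts (Ensembl release 115). Promoters were read from the RefSeq genome sequence at the outermost Ensembl 5' end of each gene, since a RefSeq promoter table was not used here. Motifs were searched on both strands. Summits of different lists were called the same peak at an overlap of 50% of the shorter one. The assignment was tested on simulated data, where 1200 of 1200 planted summits were placed right.

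All results are descriptions without a test: there is 1 group, and the lists hold no counts. The named genes were all bound members, those passing in other lists or nearest the threshold, and up to 4 of each comparison list. The members and lists were chosen with earlier results of these data known, and the summits inside genes, the examples among them and the 4 words of 6 bases after the values were seen. Alternatives covered the peak list, IDR, signal, window, 5' ends, gene assignment and short RNA genes. The tools were pandas 2.3.3 and numpy 2.4.6 under Python 3.11.15, with scipy 1.17.1, and matplotlib 3.10.9 for the plots.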

Additional observations from a re-analysis of the deposited data

How the results depend on the processing

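The count of 28 bound ribosomal protein genes fell to 15 at an IDR of 0.001 and to 18 with only the peaks at or above the median signal, and it ran from 16 to 23 in the lists of one replicate. The share of all genes, 6.65%, was 11.6% at an IDR of 0.05, 2.81% at 0.001, 3.67% at or above the median signal, 4.18% when the window was narrowed to 500 bp before and 100 bp after the 5' end, and 2.47% to 4.51% in the lists of one replicate. The count stayed within 1.5 times of 28 with the conservative list (23), other windows (22 and 31), the outermost 5' end (24) and peak overlap (38). It did so too without summits within 500 or 200 bp of short RNA genes (23 and 27, beside 5.73% and 5.81%). When each summit went only to the nearest gene among those whose window held it, the count was 22, beside 5.65% of all genes. That rule passes over a nearer 5' end whose window does not hold the summit. By the nearest 5' end of any gene, 18 of the 28 strongest summits were nearest to the ribosomal protein gene. Alternatives added after seeing the data gave 28 with Ensembl symbols, 25 with RefSeq symbols and 20 with upstream summits only (beside 5.27% of all genes). The median distance was -268 and -273 bp in the lists of replicates 1 and 2, and the spread set from these lists was 3.18 bp. It moved by more than that spread, to -279 bp in the conservative list, -276 bp without short RNA summits and -278 bp with outermost ends. All these shifts are small beside the quartiles of the bound members, -362 and 28.2 bp. The median signal of the bound members stood at the 60.2 percentile of the bound genes of its list. It was 64.8 in the conservative list and 67.1 without short RNA summits, but 44.0 to 47.2 in the lists of one replicate. The number near a short RNA gene, 5 at 500 bp, was 1 at 200 bp and 8 at 1000 bp. In the 150 bp at the summit, AGATAA was present in 3.57% of the bound members (1 of 28), beside 5.84% of the other bound genes, and TATAAA and the run of T in 0 of 28, beside 9.61% and 5.23%. No paired analysis was possible because there is only 1 group. The lists hold no read counts, so the effect of depth on calls near the threshold was not tested.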
